A study of Arabidopsis thaliana with 6 samples.

Results

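The 42 genes described here make, activate, degrade and sense cytokinin in Arabidopsis thaliana. They were chosen by name, as published families, from the 33602 gene models of the count files, with earlier results of these data known. They are 4 adenosine phosphate isopentenyltransferases (IPT) and 2 cytochrome P450 hydroxylases (CYP735A) of synthesis, 7 LONELY GUY (LOG) activating enzymes, 7 cytokinin oxidases (CKX), 3 histidine kinase receptors (AHK), 5 phosphotransfer proteins (AHP), 4 type-B and 10 type-A response regulators (ARR). RNA came from whole seedlings at Boyes stage 1.02, raised in vitro in long days at 21 °C. Every seedling, the controls included, carried 35S::CUC2-GR, in which the viral 35S promoter drives the boundary transcription factor CUC2 joined to the glucocorticoid receptor domain that holds it inactive until dexamethasone binds. The Dex group (3 libraries) had 10 µL of dexamethasone added to its liquid medium (10 mL) and was collected after 6 h, and the no_Dex group (3 libraries) was left untreated. The labels list neither a solvent control nor seedlings without the transgene, so the response to dexamethasone or handling and the response to CUC2-GR cannot be told apart. They call the libraries biological replicates, and do not say whether the line is 1 insertion event or whether seedlings were pooled.

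Cytokinins are adenine-derived hormones that promote shoot meristem activity and restrain root meristem growth. IPT enzymes attach the isoprenoid side chain, CYP735A enzymes hydroxylate it to the trans-zeatin form, LOG enzymes release the active free base from its nucleotide, and CKX enzymes destroy the hormone by cleaving the side chain. Receptors pass a phosphate through AHP proteins to the type-B ARR transcription factors, which switch on the type-A ARR genes, whose products dampen the pathway in a negative feedback loop.

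Between 26161582 and 29481253 read pairs were counted per library, with a median of 513 pairs for a tested gene in a library. Pair counts are given relative to library size after scaling by edgeR's TMM factors (CPM). On the unscaled sizes, a count of 0 allowed a level of up to 0.102 to 0.115 CPM, for counting error only. Across the tested genes, log2 CPM correlated at 0.994 to 0.995 among the no_Dex libraries and at 0.994 between Dex 2 and Dex 3, while Dex 1 stood further from Dex 2 and Dex 3 (0.988 and 0.987). CUC2 itself was counted at 855 to 873 CPM in Dex libraries, against 832 to 890 CPM in no_Dex libraries, a sum of transgene and endogenous transcripts with a log2 fold change of 0.02 (standard error, SE, 0.06; adjusted p = 0.876 by edgeR). The transgene is switched on at the protein, so this level does not check the labels.

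As a group, the 42 genes held 0.109% of the counted pairs in each Dex library and 0.112% to 0.118% in the no_Dex libraries. Levels between genes were compared per kilobase of gene model. The phosphotransfer protein gene AHP1 was the highest, at 134 ± 11.7 CPM per kilobase in Dex and 145 ± 12.3 in no_Dex (SD, n = 3 each), followed by the type-A regulator ARR4 at 80.4 ± 9.13 in Dex and 86.6 ± 1.56 in no_Dex. In no_Dex, AHP1 stood apart from ARR4, and ARR4 from AHP2, with no overlap between the libraries. Most neighbours further down overlapped, and the others without overlap were the steps below AHP3, AHK3, ARR10, ARR2, IPT5, CKX7, ARR15 and CKX1. The lowest gene was the oxidase CKX2, which had at most 1 pair in any Dex library and at most 2 pairs in any no_Dex library.

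**Figure D1:**
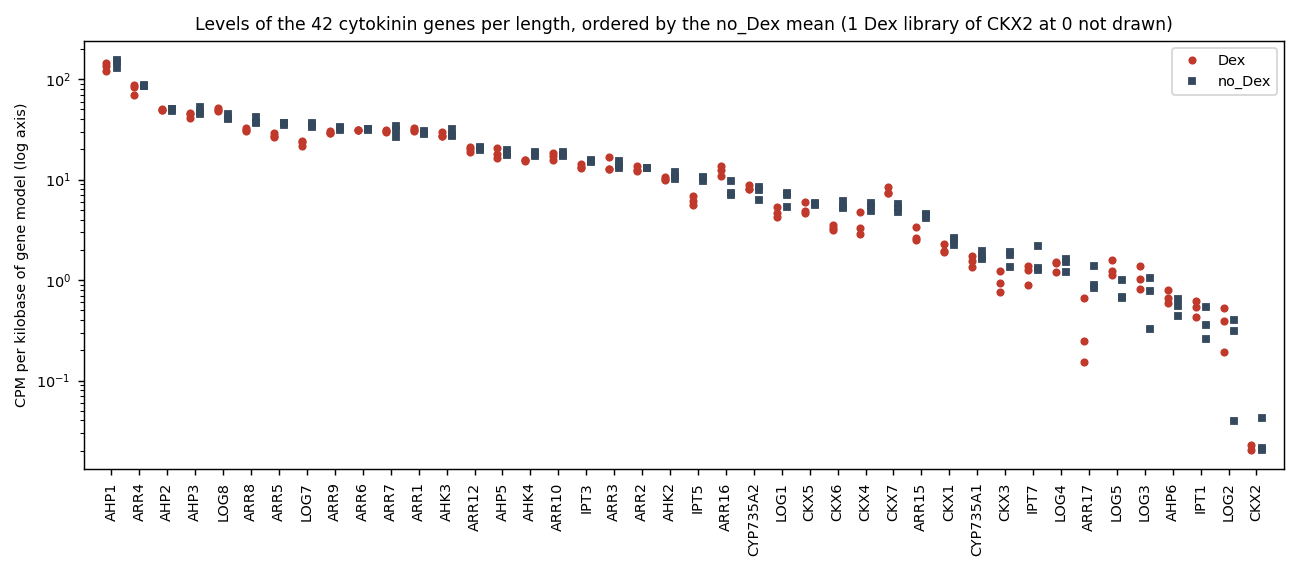
Level of each of the 42 genes in every library, as CPM per kilobase of gene model on a log axis; circles are Dex libraries, squares are no_Dex libraries, and genes are ordered by their no_Dex mean. AHP1 and ARR4 were highest and CKX2 lowest in both groups.

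As families, the receptors, AHP and ARR genes each had more RNA per kilobase than the IPT, CYP735A or CKX genes. The summed level of the 10 type-A ARR genes was 246, 268 and 269 CPM per kilobase in the Dex libraries, against 280, 278 and 293 in the no_Dex libraries. The 5 AHP genes summed to 238, 251 and 252 CPM per kilobase in Dex, against 268, 247 and 270 in no_Dex. The CKX sums were 22.5, 22.6 and 23.5 CPM per kilobase in Dex, against 26.1, 25.7 and 26.4 in no_Dex, and the IPT sums were 23.2, 21.3 and 20.2 in Dex, against 28.4, 27.1 and 27.1 in no_Dex. Sums of the type-A ARR, CKX and IPT families lay lower in every Dex library than in any no_Dex library, and those of the AHP family overlapped. The LOG sum (81.6 ± 3.49 in Dex, 86.4 ± 2.81 in no_Dex), the CYP735A sum (9.86 ± 0.510 in Dex, 9.25 ± 1.18 in no_Dex) and the type-B ARR sum (81.6 ± 1.26 in Dex, 80.9 ± 0.795 in no_Dex) also overlapped between the groups. For the AHK family the sum was 53.0 to 55.7 in Dex and 55.9 to 62.7 in no_Dex. These did not overlap but nearly touched, at Dex 1 and no_Dex 3, and AHK2 and AHK3 each overlapped on their own. Since these are whole seedlings, fewer cells of a type and less RNA per cell cannot be told apart.

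Of the 42 genes, 40 passed the filter on low counts, and LOG2 and CKX2 did not. After Dex 3 of the 40 rose (LOG8, CKX7 and ARR16) and 7 fell (IPT5, LOG7, CKX6, AHK4, ARR5, ARR8 and ARR15), at a Benjamini-Hochberg adjusted p under 0.05 over all 21344 genes tested. That was 25% of the tested genes of the pathway, against 14.4% of all genes tested, of which 5.99% rose and 8.4% fell. Changes were small: the median log2 fold change, Dex minus no_Dex, was -0.11 over the 40 genes and 0.01 over all genes, with a range of -1.49 to 0.75 over the 40. The fold change was negative for 75% of the 40 genes and for 48.3% of all genes. For 19 of the 40 genes the Dex and no_Dex libraries did not overlap (47.5%, against 36.3% of all genes), with the Dex libraries below in 14 (18.3% of all genes) and above in 5 (18.1% of all genes). Both activation and breakdown held 1 gene that rose and 1 that fell. Without Dex 1, the library that stood apart, 3 of the 40 rose and 10 fell, which was 32.5%, against 23.6% of all genes in the same fit: IPT3, CKX3, CKX5 and ARR17 were added and ARR15 was lost. Without Dex 2, 1 rose and 5 fell (14.6% of 41 tested, against 8.18% of all genes), and without Dex 3, 1 rose and 6 fell (17.5%, against 10.4% of all genes). Without no_Dex 1, 1 rose and 4 fell (12.5%, against 7.9% of all genes), without no_Dex 2 the 4 calls were all lower (10%, against 6.08% of all genes), and without no_Dex 3, 3 rose and 5 fell (20%, against 7.15% of all genes).

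**Figure D2:**
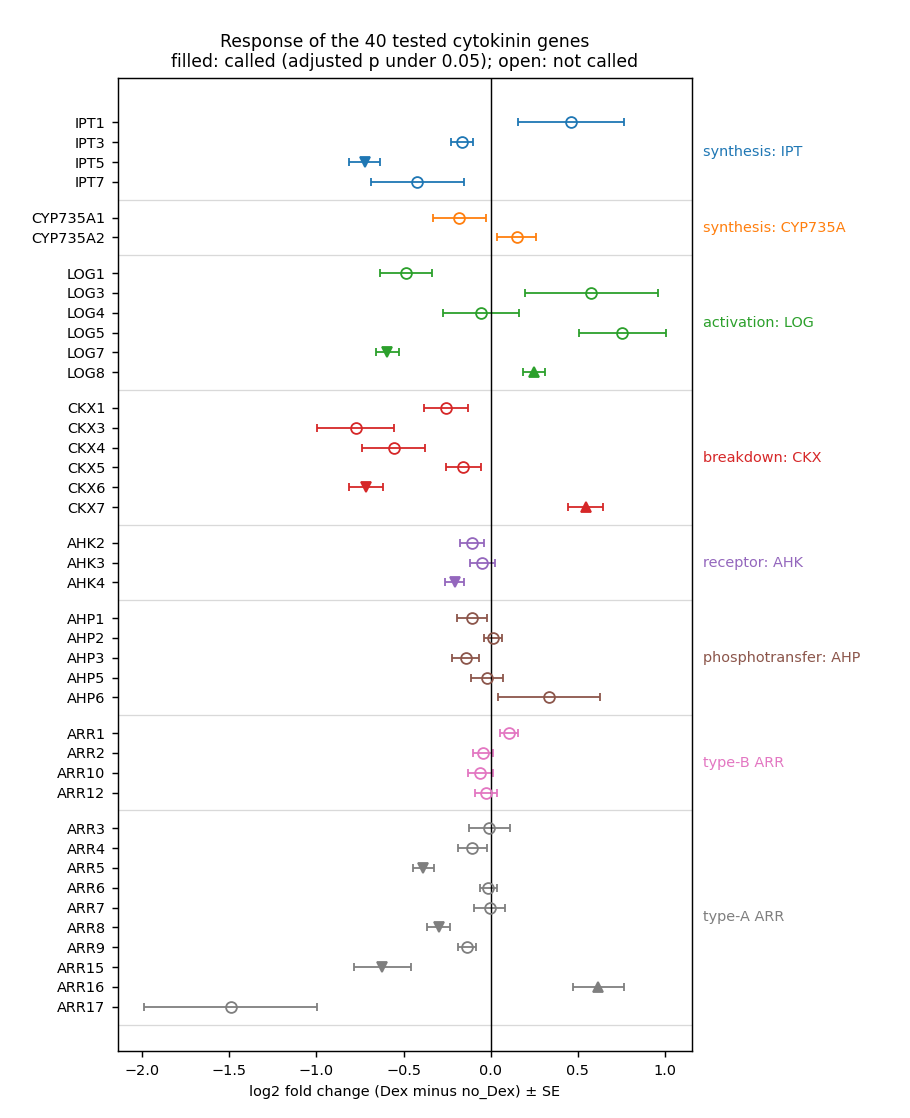
Log2 fold change (Dex minus no_Dex) of the 40 tested genes by role, with bars of 1 SE; filled triangles mark genes called at an adjusted p under 0.05. The 3 called higher are LOG8, CKX7 and ARR16, and the 7 called lower range from AHK4 at -0.21 to IPT5 at -0.72.

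Some markers of tissues moved in the same libraries. Of 27 markers, 25 could be tested, and 5 fell by edgeR at the same threshold (20%, against 8.4% of all genes). None rose (0, against 5.99% of all genes), with 0 higher also at an unadjusted p under 0.05. The fold change was negative for 20 of the 25 and positive for 5. Of the 25, 52% did not overlap between the groups, against 36.3% of all genes. The 5 root tip markers summed to 56.3 to 59.0 CPM in Dex and 64.6 to 65.8 in no_Dex. The 5 genes listed for root hairs and endodermis summed to 304 to 311 CPM in Dex and 350.0 to 401 in no_Dex. The 5 leaf mesophyll markers summed to 6159 to 9582 CPM in Dex and 10783 to 12296 in no_Dex, and the 4 vascular markers to 173 to 184 CPM in Dex and 193 to 212 in no_Dex. These 4 sums did not overlap between the groups. Abundant markers weigh most in them: CAB1 averaged 4400 CPM in Dex and 7208 in no_Dex, and PHO1 191 CPM in Dex and 229 in no_Dex. PHO1 made up most of the sum listed for root hairs and endodermis and is not specific to them, so that sum does not measure them alone. RHD6, COBL9, EXPA7 and CASP1, the rest of that list, each lay lower in Dex without overlap. Others in the same lists did not follow, with log2 fold changes of -0.01 for RBCS1A, PLT1 and ATHB8. PLT2 lay higher in Dex without overlap (log2 fold change 0.45) and was not called. The 4 shoot apex markers, of which the stem cell organiser WUS was at 0 pairs in every library, summed to 19.8 to 27.4 CPM in Dex and 24.3 to 28.5 in no_Dex, and the 4 markers of dividing cells to 84.7 to 114 CPM in Dex and 90.7 to 105 in no_Dex. Root and leaf markers were thus both present, as in a whole seedling, and the part of these shifts in the results on cytokinin genes was not tested.

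In synthesis, IPT5 fell to about 60.5% of its no_Dex level, and the other 3 IPT genes and both CYP735A genes did not pass the test. IPT5 (AT5G19040; TAIR10.1 chr5:6361776-6363713, minus strand) encodes an isopentenyltransferase that starts cytokinin synthesis. Its level was 10.8, 9.73 and 8.87 CPM in the Dex libraries, against 16.7, 15.4 and 16.5 CPM in the no_Dex libraries. The Dex libraries all lay below the no_Dex libraries, with a gap wider than either group's range. The means were 9.81 ± 0.988 CPM in Dex and 16.2 ± 0.706 CPM in no_Dex (SD, n = 3 each), with a log2 fold change of -0.72 (SE 0.09; adjusted p = 0.00202 in edgeR's quasi-likelihood test).

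IPT3, the phloem-expressed isopentenyltransferase that responds to nitrate, had the highest level per kilobase of the synthesis genes in both groups. It had 21.2, 19.4 and 19.4 CPM in Dex, against 22.5, 22.9 and 21.8 CPM in no_Dex, without overlap, and a log2 fold change of -0.17 (SE 0.06; adjusted p = 0.127 by edgeR). Without Dex 1 it was called lower (adjusted p = 0.0401). IPT7 had 1.35 to 2.10 CPM in Dex and 1.89 to 3.32 CPM in no_Dex, and IPT1 had 19 to 29 pairs in Dex and 12 to 24 pairs in no_Dex. Both of these isopentenyltransferase genes overlapped between the groups (log2 fold changes -0.42 and 0.46). CYP735A2, the more abundant trans-hydroxylase gene, had 13.9 to 15.4 CPM in Dex and 10.9 to 14.5 CPM in no_Dex, with a log2 fold change of 0.15 (edgeR adjusted p = 0.417). CYP735A1 had 2.51 to 3.24 CPM in Dex and 2.98 to 3.59 CPM in no_Dex, with a log2 fold change of -0.18 (edgeR adjusted p = 0.466).

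Among the activating LOG enzymes the pair with the most RNA moved in opposite directions, LOG7 down and LOG8 up. LOG7 (AT5G06300; chr5:1921548-1925407, minus strand), a phosphoribohydrolase that releases free cytokinin bases, had 22.5, 24.5 and 25.1 CPM in Dex, against 38.0, 34.6 and 36.3 CPM in no_Dex. The highest Dex library lay well below the lowest no_Dex library. The means were 24.0 ± 1.35 CPM in Dex and 36.3 ± 1.66 CPM in no_Dex (SD, n = 3 each), a log2 fold change of -0.59 (SE 0.07; adjusted p = 0.00122 by edgeR). LOG8 (AT5G11950; chr5:3854388-3857243, plus strand), an enzyme of the same activity, had 44.3, 47.7 and 45.7 CPM in Dex, against 37.6, 36.9 and 41.4 CPM in no_Dex. The Dex libraries were all above the no_Dex libraries, though no_Dex 3 came close to Dex 1. The means were 45.9 ± 1.70 CPM in Dex and 38.6 ± 2.38 CPM in no_Dex (SD, n = 3 each), and LOG8 rose by a log2 fold change of 0.25 (SE 0.06; adjusted p = 0.0345 by edgeR). This call was lost without Dex 2 (adjusted p = 0.114), Dex 3 (0.0841), no_Dex 1 (0.118) or no_Dex 2 (0.141).

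The remaining LOG genes, all phosphoribohydrolases, were at 5.69 CPM or less in every Dex library and at 7.91 CPM or less in every no_Dex library. LOG1 had 4.50, 5.69 and 4.99 CPM in Dex, against 7.91, 7.53 and 5.79 CPM in no_Dex. The groups did not overlap, although Dex 2 and no_Dex 3 lay side by side. The means were 5.06 ± 0.595 CPM in Dex and 7.07 ± 1.13 CPM in no_Dex (SD, n = 3 each), and the log2 fold change of -0.49 (SE 0.15) did not pass (adjusted p = 0.065 by edgeR). Without no_Dex 3 it did (adjusted p = 0.0439). LOG5 had 1.56, 1.22 and 1.10 CPM in Dex, against 0.650, 0.990 and 0.667 CPM in no_Dex, without overlap, and a log2 fold change of 0.75 (SE 0.25; adjusted p = 0.0813 by edgeR). LOG3 and LOG4 overlapped between the groups, with log2 fold changes of 0.58 and -0.05. LOG2 was not tested, at 5 to 13 pairs in the Dex libraries and 1 to 10 pairs in the no_Dex libraries.

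In breakdown, CKX6 fell and CKX7 rose, and the other 4 tested oxidase genes did not pass. CKX6 (AT3G63440; chr3:23424157-23426536, plus strand), an oxidase that cleaves the side chain, had 6.37, 6.68 and 7.16 CPM in Dex, against 10.4, 12.2 and 10.7 CPM in no_Dex. The Dex libraries were all lower, with a clear gap. The means were 6.74 ± 0.398 CPM in Dex and 11.1 ± 0.978 CPM in no_Dex (SD, n = 3 each), a log2 fold change of -0.72 (SE 0.10; adjusted p = 0.00302 by edgeR). A noncoding RNA annotated on the opposite strand, AT3G63445, shares 1836 exon bases with CKX6, and the libraries hold no strand information. That RNA was counted at 119, 97 and 96 pairs in Dex, against 127, 109 and 115 pairs in no_Dex, and was not called (log2 fold change -0.13, edgeR adjusted p = 0.511).

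CKX7 (AT5G21482; chr5:7226606-7230304, plus strand), the cytosolic member of the oxidase family, had 13.5, 15.6 and 13.5 CPM in Dex, against 8.86, 9.68 and 10.7 CPM in no_Dex. Here the Dex libraries were all higher. The means were 14.2 ± 1.23 CPM in Dex and 9.75 ± 0.920 CPM in no_Dex (SD, n = 3 each), a log2 fold change of 0.54 (SE 0.10; adjusted p = 0.0101 by edgeR), and the call was narrowly lost without no_Dex 2 (adjusted p = 0.0522). Of the other oxidase genes, CKX3 had 1.96, 1.49 and 1.21 CPM in Dex, against 3.01, 2.16 and 2.84 CPM in no_Dex. Its Dex libraries all lay below the no_Dex libraries, next to each other at Dex 1 and no_Dex 2. The means were 1.55 ± 0.381 CPM in Dex and 2.67 ± 0.453 CPM in no_Dex (SD, n = 3 each), and the log2 fold change of -0.78 (SE 0.22) just missed the threshold (adjusted p = 0.0511 by edgeR). With the replicate number as a block CKX3 was called lower (adjusted p = 0.0381), as it was by DESeq2 (0.0401), with a filter of 1 CPM (0.0433), with no filter (0.0492), on single reads (0.0495) and without Dex 1 (0.00981).

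CKX4 had 5.32, 6.15 and 8.94 CPM in Dex, against 10.9, 9.05 and 10.1 CPM in no_Dex. Dex 3 was the high library of its group, just under no_Dex 2. The means were 6.80 ± 1.90 CPM in Dex and 10.0 ± 0.920 CPM in no_Dex (SD, n = 3 each), with a log2 fold change of -0.56 (SE 0.18; adjusted p = 0.0787 by edgeR), and CKX4 was called lower by DESeq2 (adjusted p = 0.0336) and without Dex 3 (edgeR, 0.0102). CKX5 had 12.6 to 16.2 CPM in Dex and 15.1 to 15.96 CPM in no_Dex, with a log2 fold change of -0.16 (edgeR adjusted p = 0.335). Its high Dex value was Dex 1, without which it was called lower (adjusted p = 0.025). CKX1 had 3.78 to 4.45 CPM in Dex and 4.35 to 5.10 CPM in no_Dex, with a log2 fold change of -0.26 (edgeR adjusted p = 0.211). CKX1 and CKX5 also share exon bases with protein-coding genes on the opposite strand, 761 with AT2G41515 and 347 with AT1G75440. CKX2 was not tested.

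**Figure D3:**
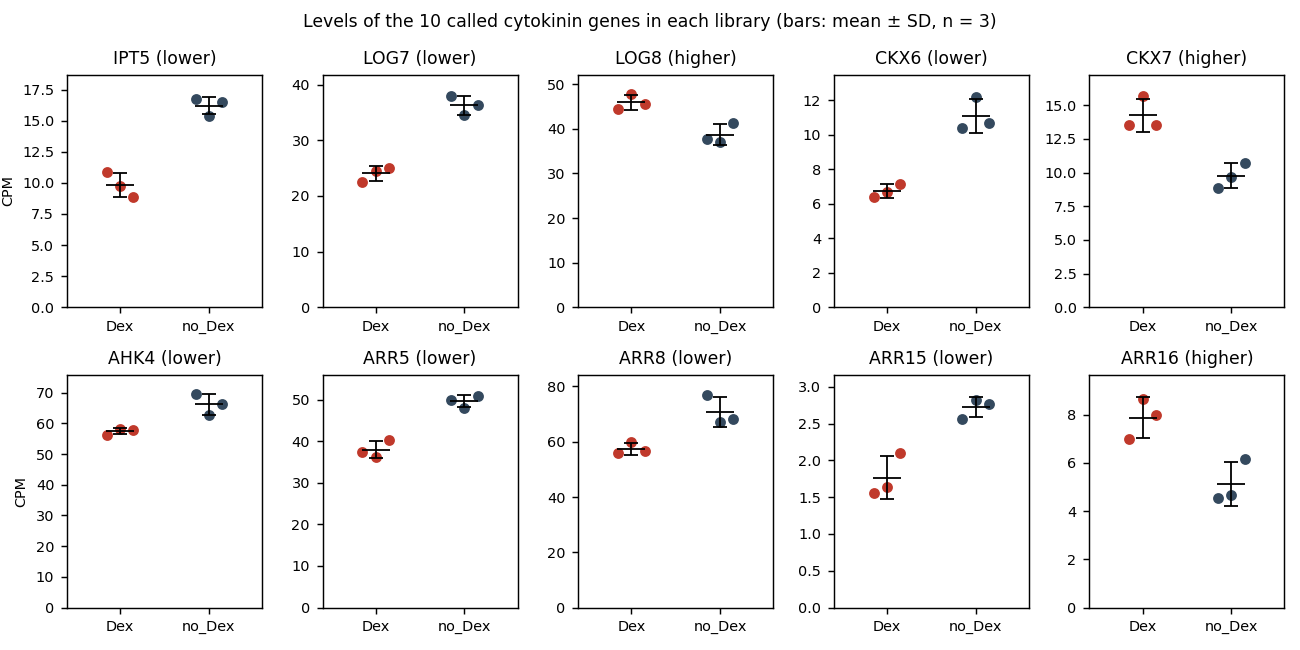
Level in CPM of the 10 called genes in each library (points, Dex left of no_Dex in each panel, axes from 0), with bars for mean ± SD of 3 libraries. Within each panel no Dex library overlaps a no_Dex library, which largely restates the calls by which these genes were picked.

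At the receptors, AHK4 (AT2G01830; chr2:362983-369707, minus strand), the receptor that acts chiefly in root vascular tissue, had 56.3, 58.1 and 57.8 CPM in Dex, against 69.5, 62.8 and 66.3 CPM in no_Dex. The Dex libraries lay close together and below all no_Dex libraries. The means were 57.4 ± 0.981 CPM in Dex and 66.2 ± 3.34 CPM in no_Dex (SD, n = 3 each), a log2 fold change of -0.21 (SE 0.06; adjusted p = 0.0428 by edgeR), which was the smallest change of the called genes. The call was lost with total counts only (adjusted p = 0.0537), with no filter (0.0562), and without Dex 2 (0.102), Dex 3 (0.0961), no_Dex 1 (0.131), no_Dex 2 (0.0659) or no_Dex 3 (0.122). AHK3, the most abundant receptor gene, had 97.3 to 106 CPM in Dex and 98.0 to 113 CPM in no_Dex, and AHK2 had 38.5 to 41.5 CPM in Dex and 40.03 to 46.8 CPM in no_Dex. Both overlapped between the groups (log2 fold changes -0.05 and -0.11).

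None of the 5 AHP genes and none of the 4 type-B ARR genes was called by edgeR, DESeq2 or limma-voom, and 0 had an unadjusted p under 0.05 in any of these. The phosphotransfer genes AHP1, AHP2, AHP3 and AHP5 had log2 fold changes between -0.14 and 0.01, and all overlapped between the groups. AHP6, which lacks the phosphorylated histidine and acts as an inhibitor, had 10 to 15 pairs in Dex and 8 to 12 pairs in no_Dex, with a log2 fold change of 0.34 (SE 0.29; adjusted p = 0.538 by edgeR). Among the type-B transcription factors, ARR1 had 86.9, 82.3 and 84.1 CPM in Dex, against 81.8, 77.5 and 76.1 CPM in no_Dex, above without overlap but with a log2 fold change of 0.10 (SE 0.05; adjusted p = 0.231 by edgeR). ARR2, ARR10 and ARR12 had log2 fold changes between -0.06 and -0.03 and overlapped between the groups.

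Of the 10 type-A ARR genes, the largest family here, ARR5, ARR8 and ARR15 fell, ARR16 rose, and the other 6 did not pass. These calls were 40% of the family, against 33.3% of the tested LOG, CKX or AHK genes and 14.4% of all genes tested. The fold change was negative for 9 of the 10 (90%, against 48.3% of all genes), with a median log2 value of -0.12. These regulators fall into close pairs by sequence. Over the coding sequence, ARR5 and ARR6 were 80.1% identical, ARR7 and ARR15 79%, ARR16 and ARR17 83.4%, ARR8 and ARR9 81.3%, and ARR3 and ARR4 81.7%. Their longest shared runs were 20, 19, 23, 41 and 41 bases, in the same order. The 250 bases before the RefSeq gene start are printed for 3 of the 4 pairs in which 1 member was called and the other was not, those with the widest gaps in log2 fold change, since type-B ARR proteins act on these promoters. In TAIR10.1 they lie at chr3:17760951-17761200 (ARR5, minus strand), chr5:25254319-25254568 (ARR6, minus strand), chr1:6579315-6579564 (ARR7, minus strand), chr1:28133026-28133275 (ARR15, minus strand), chr2:16969423-16969672 (ARR16, plus strand) and chr3:20905014-20905263 (ARR17, plus strand). Each runs 5′ to 3′ towards the gene. AGATT, a short sequence bound by type-B ARR proteins, is in capitals on either strand (AATCT where it is on the other strand).
ARR5: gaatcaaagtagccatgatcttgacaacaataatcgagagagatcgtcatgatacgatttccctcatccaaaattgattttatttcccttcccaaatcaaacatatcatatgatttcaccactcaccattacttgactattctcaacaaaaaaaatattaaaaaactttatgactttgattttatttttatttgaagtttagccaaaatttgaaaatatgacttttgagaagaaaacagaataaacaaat
ARR6: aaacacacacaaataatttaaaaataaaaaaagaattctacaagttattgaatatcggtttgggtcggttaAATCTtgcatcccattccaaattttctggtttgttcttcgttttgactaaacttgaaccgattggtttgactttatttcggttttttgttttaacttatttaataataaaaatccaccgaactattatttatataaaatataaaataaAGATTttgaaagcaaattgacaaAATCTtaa
ARR7: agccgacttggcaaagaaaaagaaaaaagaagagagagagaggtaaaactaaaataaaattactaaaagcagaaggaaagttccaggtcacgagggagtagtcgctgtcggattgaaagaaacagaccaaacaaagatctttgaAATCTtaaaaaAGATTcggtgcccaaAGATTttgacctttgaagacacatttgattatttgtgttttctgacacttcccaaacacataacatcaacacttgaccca
ARR15: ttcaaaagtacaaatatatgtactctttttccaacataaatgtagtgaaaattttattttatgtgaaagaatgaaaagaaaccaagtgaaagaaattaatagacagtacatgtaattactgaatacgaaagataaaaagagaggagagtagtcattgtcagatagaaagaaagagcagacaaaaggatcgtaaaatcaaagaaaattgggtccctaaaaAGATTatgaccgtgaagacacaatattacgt
ARR16: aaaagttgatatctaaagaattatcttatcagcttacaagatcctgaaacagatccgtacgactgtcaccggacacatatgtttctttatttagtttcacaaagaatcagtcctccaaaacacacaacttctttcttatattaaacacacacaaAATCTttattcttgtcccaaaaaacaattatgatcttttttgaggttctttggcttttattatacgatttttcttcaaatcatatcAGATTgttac
ARR17: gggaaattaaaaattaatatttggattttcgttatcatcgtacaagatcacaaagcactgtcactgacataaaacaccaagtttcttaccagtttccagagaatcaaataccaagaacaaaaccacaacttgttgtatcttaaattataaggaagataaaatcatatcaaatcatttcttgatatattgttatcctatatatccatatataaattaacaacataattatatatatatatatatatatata

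AGATT, searched on both strands, was in 24 of the 42 promoters and in 7 of the 10 type-A promoters, and 63.7% of all 27443 promoters of this length held it. ARR6 and ARR7 had 3 matches each, ARR16 had 2, ARR15 had 1, and ARR5 and ARR17 had 0 in this window. Called and uncalled genes thus stood on both sides of the presence of AGATT. Only the exact sequences named here were searched, so 0 matches do not show that a promoter lacks sites for type-B ARR proteins. The longer AGATACG was in 1 of the 42, the promoter of IPT3, against 1.69% of all promoters. CACG, the core of sites bound by NAC proteins such as CUC2, was in 21 of the 42 and in 4 of the 10 type-A promoters, ARR7 and ARR15 among them, against 45.6% of all promoters.

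ARR5 (AT3G48100; chr3:17758427-17760950, minus strand), a regulator whose gene is rapidly induced by cytokinin, had 37.3, 36.2 and 40.2 CPM in Dex, against 49.96, 48.0 and 50.8 CPM in no_Dex. All Dex libraries were lower, by a gap wider than the range of either group. The means were 37.9 ± 2.08 CPM in Dex and 49.6 ± 1.46 CPM in no_Dex (SD, n = 3 each), a log2 fold change of -0.39 (SE 0.06; adjusted p = 0.00491 by edgeR). Its close relative ARR6 had 30.7, 30.3 and 30.6 CPM in Dex, against 30.7, 30.9 and 30.9 CPM in no_Dex. These values were nearly level, with a log2 fold change of -0.01 (SE 0.05; adjusted p = 0.887 by edgeR). ARR6 shares 348 exon bases with a protein-coding gene on the opposite strand, AT5G62910, in libraries without strand information. That gene was counted at 623, 605 and 673 pairs in Dex, against 576, 598 and 584 pairs in no_Dex (log2 fold change 0.15, edgeR adjusted p = 0.184). Its part in the level of ARR6 was not tested.

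ARR15 (AT1G74890; chr1:28131447-28133025, minus strand), a feedback regulator active in meristems, had 1.56, 1.64 and 2.10 CPM in Dex, against 2.57, 2.83 and 2.77 CPM in no_Dex. The Dex libraries were all lower, on 43 to 59 pairs in Dex and 75 to 80 pairs in no_Dex. The means were 1.77 ± 0.293 CPM in Dex and 2.72 ± 0.137 CPM in no_Dex (SD, n = 3 each), a log2 fold change of -0.62 (SE 0.16; adjusted p = 0.0402 by edgeR). The call was lost by DESeq2 (adjusted p = 0.0707), and by edgeR without Dex 1 (0.0556), Dex 2 (0.122), no_Dex 1 (0.0867), no_Dex 2 (0.133) or no_Dex 3 (0.118). ARR7, the relative with which ARR15 shares its meristem role, had 24.0, 24.9 and 25.0 CPM in Dex, against 21.5, 25.1 and 27.6 CPM in no_Dex. The Dex libraries lay inside the no_Dex range, with a log2 fold change of -0.01 (SE 0.09; adjusted p = 0.974 by edgeR).

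ARR8 (AT2G41310; chr2:17221840-17224880, plus strand), another type-A regulator, had 56.0, 59.8 and 56.5 CPM in Dex, against 76.9, 67.0 and 68.1 CPM in no_Dex. The groups were separate, and no_Dex 1 was the high library. The means were 57.4 ± 2.08 CPM in Dex and 70.6 ± 5.44 CPM in no_Dex (SD, n = 3 each), a log2 fold change of -0.30 (SE 0.07; adjusted p = 0.0224 by edgeR), lost without Dex 3 (adjusted p = 0.0666), no_Dex 1 (0.0632), no_Dex 2 (0.0504) or no_Dex 3 (0.0563). ARR8 shares 299 exon bases with a noncoding RNA on the opposite strand (AT2G09250), whose reads cannot be told apart from its own. ARR9 had 39.7 to 40.9 CPM in Dex and 42.5 to 45.6 CPM in no_Dex, below without overlap, with a log2 fold change of -0.14 (SE 0.05; adjusted p = 0.127 by edgeR).

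ARR16 (AT2G40670; chr2:16969673-16972113, plus strand), one of the short type-A regulators, was the type-A gene that rose. It had 7.01, 8.66 and 7.98 CPM in Dex, against 4.55, 4.66 and 6.17 CPM in no_Dex. All Dex libraries were higher, with Dex 1 and no_Dex 3 nearest to each other. The means were 7.88 ± 0.831 CPM in Dex and 5.13 ± 0.906 CPM in no_Dex (SD, n = 3 each), a log2 fold change of 0.62 (SE 0.15; adjusted p = 0.0267 by edgeR), lost without Dex 2 (adjusted p = 0.0903), Dex 3 (0.068), no_Dex 1 (0.0992) or no_Dex 2 (0.113). ARR17, its closest relative, had 9, 3 and 2 pairs in Dex, against 12, 11 and 18 pairs in no_Dex. It lay lower in Dex on few reads, with the most negative log2 fold change of the 40 genes, -1.49 (SE 0.50; adjusted p = 0.0822 by edgeR), and was called lower without Dex 1 (-2.32, adjusted p = 0.0126). ARR3 had 13.5 to 17.5 CPM in Dex and 13.8 to 16.1 CPM in no_Dex, and ARR4 had 89.5 to 112 CPM in Dex and 109 to 113 CPM in no_Dex. Both overlapped between the groups, with log2 fold changes of -0.01 and -0.11.

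Some pairs of genes of a family stood in other proportions in Dex than in no_Dex libraries. Per kilobase, the LOG8 to LOG7 ratio was 2.23, 2.20 and 2.06 in Dex, against 1.12, 1.21 and 1.29 in no_Dex. The CKX7 to CKX6 ratio was 2.31, 2.54 and 2.05 in Dex, against 0.928, 0.863 and 1.09 in no_Dex. So CKX6 and CKX7 were about level in no_Dex, while CKX7 was ahead in every Dex library. The IPT3 to IPT5 ratio averaged 2.20 ± 0.134 in Dex and 1.49 ± 0.0959 in no_Dex, and the ARR6 to ARR5 ratio 1.14 ± 0.0579 in Dex and 0.878 ± 0.0269 in no_Dex (SD, n = 3 each). The ARR7 to ARR15 ratio averaged 10.9 ± 1.51 in Dex and 6.98 ± 0.620 in no_Dex (SD, n = 3 each). None of these ratios overlapped between the groups, and the pairs were chosen after their values were seen. In each pair the second gene was called lower, and LOG8 and CKX7 were called higher. The separation of the ratios thus largely restates these calls. Not every pair was the closest by coding sequence: LOG7 was 65.9% identical to LOG8 and 69.9% to LOG1. CKX6 was 60.4% identical to CKX7 and 64.5% to CKX5. Whether the responses of paired genes differ was not tested.

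**Figure D4:**
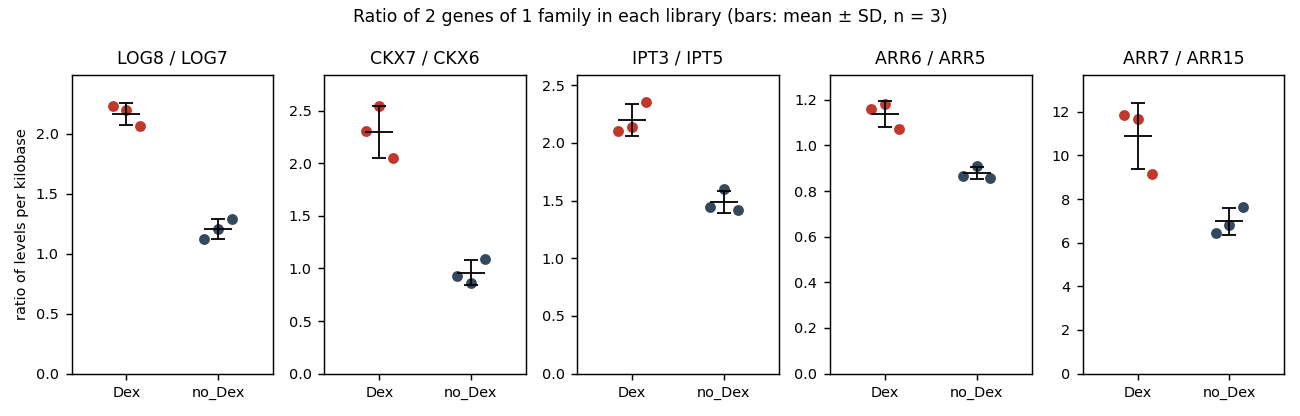
Ratio of the levels per kilobase of related genes in each library (points, Dex left of no_Dex, axes from 0), with bars for mean ± SD of 3 libraries. The ratios of the Dex libraries lie above those of the no_Dex libraries in every panel, among them CKX7 to CKX6 at 2.05 to 2.54 in Dex and 0.863 to 1.09 in no_Dex.

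A wider list of 37 other genes took in cytokinin synthesis, transport and signalling, with AHK1 and AHK5, histidine kinases that are not cytokinin receptors. Of the 37, 23 passed the filter on low counts. Of these 4 rose (KMD1, KMD2, KMD4 and LBD3) and 5 fell (AHK1, AHK5, ABCG14, CRF2 and CGA1), which was 39.1%, against 14.4% of all genes. This list was put together with earlier results of these data known, so its share is not an independent comparison with all genes. Their median log2 fold change was -0.16, against 0.01 over all genes. KISS ME DEADLY (KMD) F-box proteins mark type-B ARR proteins for degradation, and all 3 tested KMD genes rose. KMD2 had 270, 227 and 228 CPM in Dex, against 123, 90.4 and 112 CPM in no_Dex, far apart in every library. Its means were 242 ± 24.7 CPM in Dex and 108 ± 16.5 CPM in no_Dex (SD, n = 3 each), a log2 fold change of 1.16 (SE 0.12; adjusted p = 0.00098 by edgeR), larger than that of any of the 10 called genes described above. KMD4 had 125, 144 and 142 CPM in Dex, against 108, 98.2 and 94.8 CPM in no_Dex (log2 fold change 0.45, SE 0.08; adjusted p = 0.00733 by edgeR), and shares 1382 exon bases with a noncoding RNA on the opposite strand. KMD1 had 83.8, 73.8 and 84.6 CPM in Dex, against 71.1, 56.6 and 58.5 CPM in no_Dex. Its groups nearly touched (log2 fold change 0.38, SE 0.10; adjusted p = 0.0358 by edgeR), and its call was lost without Dex 3 (adjusted p = 0.0969), no_Dex 2 (0.135) or no_Dex 3 (0.127). KMD3 was not tested, at 3 pairs or fewer in any Dex or no_Dex library. All 1445 bases of its model are shared with AT2G44140, a protein-coding gene on the opposite strand, in libraries without strand information. That gene was counted at 1159 to 1364 pairs in Dex and 1180 to 1196 pairs in no_Dex. The low count of KMD3 may thus not reflect its expression, and the part of the overlap was not tested.

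LBD3, a transcription factor gene induced by cytokinin, had 6.57, 7.18 and 7.83 CPM in Dex, against 3.80, 3.99 and 4.35 CPM in no_Dex. It rose by a log2 fold change of 0.83 (SE 0.11; adjusted p = 0.00309 by edgeR), with all Dex libraries higher. Some other genes known as cytokinin-responsive fell: the cytokinin response factor CRF2 had 11.3, 14.4 and 14.0 CPM in Dex, against 16.7, 19.0 and 19.4 CPM in no_Dex (log2 fold change -0.48, SE 0.11; adjusted p = 0.0217 by edgeR). The greening factor CGA1 had 4.54, 6.53 and 5.52 CPM in Dex, against 8.25, 8.48 and 7.54 CPM in no_Dex (log2 fold change -0.55, SE 0.14; adjusted p = 0.0335 by edgeR). Both had all Dex libraries lower. The CRF2 call was lost without no_Dex 2 (adjusted p = 0.0938) or no_Dex 3 (0.0873), and the CGA1 call without Dex 3 (0.079), no_Dex 1 (0.104), no_Dex 2 (0.123) or no_Dex 3 (0.0743). CRF1, CRF4, CRF5 and CRF6 did not pass, with log2 fold changes of -0.32, -0.21, -0.42 and -0.04. CRF3 did not pass either, with a log2 fold change of 0.15.

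ABCG14, the transporter that loads cytokinin for the route from root to shoot, had 61.9, 64.9 and 70.2 CPM in Dex, against 85.8, 88.6 and 85.4 CPM in no_Dex. Its log2 fold change was -0.40 (SE 0.06; adjusted p = 0.00462 by edgeR), with a wide gap between the groups. Of the histidine kinases that are not cytokinin receptors, AHK5 had 10.1, 9.20 and 7.66 CPM in Dex, against 15.4, 14.9 and 15.2 CPM in no_Dex (log2 fold change -0.76, SE 0.10; adjusted p = 0.00306 by edgeR). AHK1 had 45.7, 40.9 and 40.8 CPM in Dex, against 51.5, 49.6 and 48.8 CPM in no_Dex (log2 fold change -0.23, SE 0.06; adjusted p = 0.0411 by edgeR). All Dex libraries of both kinase genes were lower. The AHK1 call was lost with total counts only (adjusted p = 0.0604), and without Dex 2 (0.133), Dex 3 (0.117), no_Dex 1 (0.124), no_Dex 2 (0.119) or no_Dex 3 (0.0923). The other 14 tested genes, among them the transporters PUP14 and ENT3 and the synthesis genes IPT2 and IPT9, did not pass, and 14 of the 37, with IPT4, IPT6 and IPT8 at 0 pairs in every library, were not tested.

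**Figure D5:**
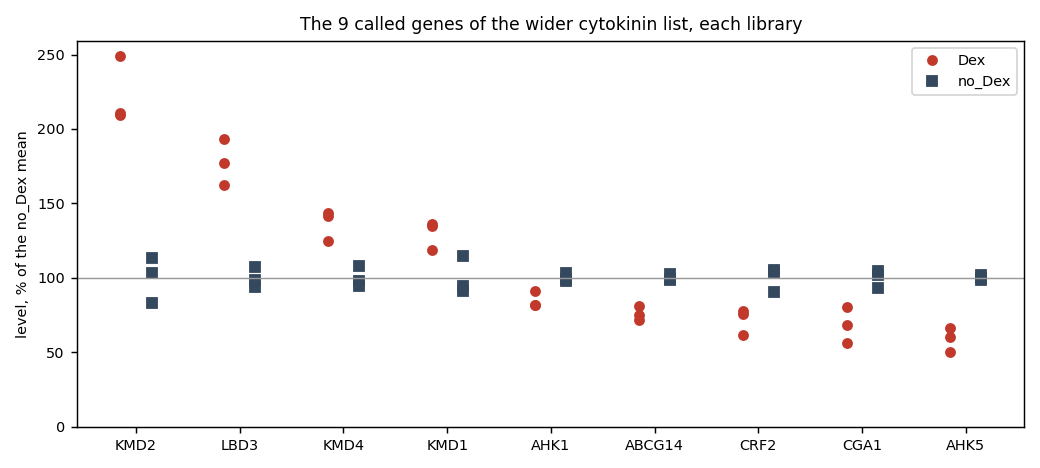
Level of the 9 called genes of the wider list in each library, as a percent of the no_Dex mean of the gene; Dex points stand left of no_Dex points. KMD2 reached 209% to 249% in the Dex libraries, against 83.4% to 113% in the no_Dex libraries, and AHK5 50.4% to 66.7% in Dex, against 98.4% to 102% in no_Dex.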

How the data were processed

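Messenger RNA selected by its polyA tail was sequenced as pairs without strand information, from 10 µg of RNA per library, per the labels' protocols. The authors used Bowtie2 and TAIR10, per the submitters' processing notes, with no version stated. The deposited values are raw counts of properly paired reads per gene model, beside counts of single reads and model lengths in bases, per the file headers; reads whose best hits tied were dropped, which lowers the counts of near-identical genes.

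The rest was computed here. In R 4.3.3, edgeR 4.0.16 filtered low counts (filterByExpr, minimum 10 per library, 15 in total), applied TMM scaling factors and compared the 3 Dex with the 3 no_Dex libraries by the two-sided quasi-likelihood test, with Benjamini-Hochberg adjustment over all 21344 genes and calls at an adjusted p under 0.05. The filter removed 12258 gene models. Each SE follows from the log2 fold change and the F value of its test. An exact permutation test of 1 gene, with 3 libraries against 3, cannot go below p = 0.1 and was not used. Alternatives were DESeq2 1.42.0, limma 3.58.1 (voom), other scalings and filters, single reads, a minimum fold, a replicate block and leaving out each library. The fit was tested on simulated data.

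Libraries with the same number deviated together: correlations across genes of deviations from the group means were 0.171, 0.119 and 0.125 for same numbers and -0.134 to 0.0177 for different ones. The pairing is read from the data alone, because the labels do not say what a number marks.

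Positions, promoters and coding sequences are from RefSeq TAIR10.1, since the files hold no coordinates; coding sequences were compared in place of proteins, which were not used here. All 42 genes matched a RefSeq symbol or synonym. The genes, the further lists and the tests were chosen with earlier results of these data known. Named were all 42 genes, the called and some uncalled genes of the wider list, some markers, and CUC2. Of the 42, full statistics were given for those called and for the 3 uncalled with the smallest p.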

Additional observations from a re-analysis of the deposited data

How the results depend on the processing

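Over 15 alternatives, IPT5, LOG7, CKX6 and ARR5 were called in all but the test against a minimum fold change of 1.5, which left 0 of the 42 genes higher and 0 lower, 1 gene of the wider list higher (KMD2) and 0 lower, and 124 of all genes higher and 77 lower. Each of the 10 called genes was lost in at least 1 alternative, and 6 uncalled genes were called in at least 1. With a library left out, 0 to 3 of the 42 were called higher and 4 to 10 lower, 3 to 4 genes of the wider list higher and 2 to 7 lower, and 519 to 2339 of all genes higher and 785 to 2726 lower. With the replicate block, 3 of the 42 were called higher and 8 lower: CKX3 was added, and no other call among the 42 changed. Calls over all genes also rose with the block, to 1604 higher and 2146 lower, against 1279 higher and 1792 lower without it. Of uncalled genes near 0, the log2 fold change turned positive with total counts only for ARR3 (0.0038) and ARR7 (0.0050), and with limma-voom for ARR7 (0.0013). With a library left out it ranged from -0.17 to 0.040 for LOG4, -0.086 to 0.016 for AHK3, -0.0099 to 0.026 for AHP2, -0.12 to 0.047 for AHP5, -0.12 to 0.00050 for ARR10, -0.066 to 0.013 for ARR12, -0.14 to 0.056 for ARR3 and -0.10 to 0.079 for ARR7. The causes of these shifts were not tested. The SE of the log2 fold change was 0.50 for ARR17, 0.29 for AHP6 and 0.25 for LOG5, which had 46 pairs or fewer in any library, against 0.05 for ARR6, which had 795 or more.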
